A study of Homo sapiens with 13 samples.

Results

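The interval from 12 h to 20 h of BMP treatment was examined by setting the 20 h library of the time series against the 12 h library, gene by gene. These are 2 of the 13 RNA-seq libraries of the study, chosen by their labelled time alone, with 1 library at each time. All cells were RUES2 human embryonic stem cells, an established line, that carry a GFP::SMAD4 fusion. The time series covers 0 h with 2 libraries and 4, 12, 20, 28 and 42 h with 1 library each, in 100 ng/mL BMP4 with 5 µM IWP2, a blocker of Wnt secretion, and ROCK inhibitor. A separate dose response at 5 h combined the same BMP4 and IWP2 with 0, 10, 30, 100 or 300 nM of the BMP receptor inhibitor LDN-193189 (LDN), with 1 untreated library. It is used here only for 0 against 300 nM LDN, because its RNA was selected by polyA and the time series was depleted of ribosomal RNA. Each library is a pool of many cells, so a change in the share of a cell type and a change of RNA per cell cannot be told apart.

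BMP4 binds type I and type II receptors that phosphorylate SMAD1, SMAD5 and SMAD9, which enter the nucleus with SMAD4 and switch on immediate targets such as the ID genes and the inhibitory SMADs. In pluripotent cells kept free of Wnt and Nodal signals, this input is known to move cells from the pluripotent state, marked by SOX2, NANOG and POU5F1, to an amnion-like state, marked first by GATA3 and TFAP2A and later by ISL1 and HAND1. Amnion is the thin ectodermal sac around the embryo.

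Library totals were 55815183 counts at 12 h and 60593493 at 20 h, and a count of 3 marks the limit below which a level is read as not detected, which equals 0.0537 CPM (counts scaled to a library total of 1000000) at 12 h and 0.0495 CPM at 20 h. The identity of the cells was checked against markers. The summed level of 9 amnion markers was 608 CPM at 12 h and 1365 CPM at 20 h, with 7 of the 9 at or above 1 CPM in both libraries. GABRP and IGFBP3 were lower at 20 h, with log2 ratios (20 h over 12 h, 0.5 CPM added) of -0.43 and -0.45. GATA2, GATA3, TFAP2A, TFAP2C, ISL1, HAND1 and VTCN1 were higher. The sum of 6 pluripotency markers was 2639 and 2272 CPM. POU5F1 made up most of it and had a log2 ratio of 0.10. NANOG, SOX2, PRDM14, TDGF1 and DPPA4 ran from -1.23 (TDGF1) to -0.57 (SOX2). Markers of other fates were low in sum, with 3.46 and 4.79 CPM for 5 primitive streak genes, 6.88 and 5.84 CPM for 8 trophoblast genes (PSG1 had no count in either library), 0.376 and 1.12 CPM for 2 endoderm genes, 2.83 and 5.22 CPM for 4 neural genes and 2.54 and 5.33 CPM for 4 germ cell genes. All but the trophoblast sum were higher at 20 h. The primitive streak, neural and germ cell sets each had only 1 gene at or above 1 CPM at 12 h and only 1 at 20 h. The endoderm set had none at either time. A higher sum can therefore come from 1 gene and does not show that the genes of a set rose together. Mitochondrial genes took 3.65% of the counts at 12 h and 2.73% at 20 h. The median gene was -0.07 at 20 h relative to 12 h on the log2 scale with library totals and 0.03 with edgeR TMM factors, so the choice of scaling shifts the log2 ratios below by about that difference, and by less for genes near 0.5 CPM.

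Genes were called rising or falling when their level changed at least 2-fold (0.5 CPM added to both levels) among the 15934 human genes whose mean level in the pair was 1 CPM or more. Between 12 h and 20 h, 350 genes rose (2.20% of those tested) and 141 fell (0.885%). With 1 library at each time these calls have no replicate check and no test. As a yardstick, the 2 libraries at 0 h differed at least 2-fold in 1.06% of 15621 genes. The spread (SD) of the log2 ratio was 0.386 between them against 0.439 between 12 h and 20 h. The 0 h libraries had 37957385 and 71333471 counts, with 7.60% and 4.29% mitochondrial. In both respects they were less alike than the 12 h and 20 h libraries. The log2 ratio was larger than the gene's own difference at 0 h for 347 of the 350 rising genes and 137 of the 141 falling genes. These counts are nearly fixed by the rule and do not check the calls. Called genes changed at least 2-fold, and only 1.06% of genes differed that much at 0 h. Of the rising genes 310 were protein-coding and 59 rose at least 4-fold, whereas among the falling genes 94 were protein-coding and 12 fell at least 4-fold. Just inside the limit, 60 genes rose between 2- and 2.1-fold, and just outside it 63 lay between 1.9- and 2-fold higher.

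**Figure D1:**
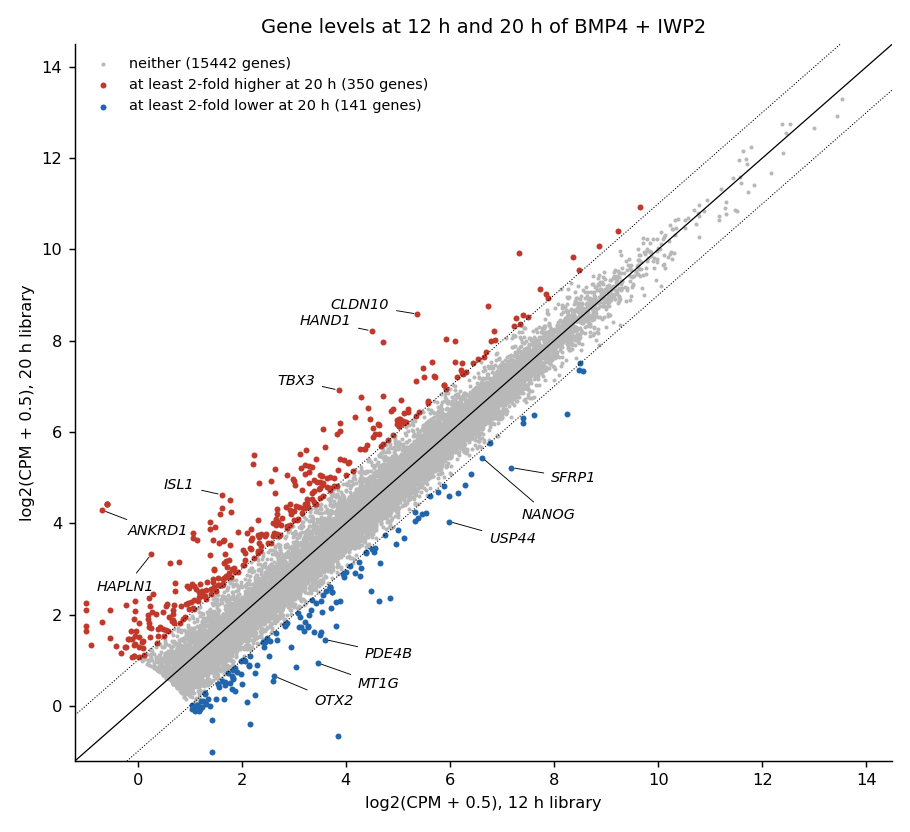
Level of each gene in the 12 h library (horizontal axis) and the 20 h library (vertical axis), as log2(CPM + 0.5), for 15933 of the 15934 genes tested. The solid line marks equal levels and the dotted lines 2-fold differences, with 350 genes above them in red, led by ANKRD1 and HAND1, and 141 below them in blue.

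ANKRD1 had the largest rise of the protein-coding genes with at least 5 CPM in either library, ranked by the log2 ratio with 0.5 CPM added. ANKRD1 (chr10:90912096-90921087, minus strand, GRCh38) encodes a cardiac ankyrin repeat protein known as a target of YAP and TEAD. It gave 7 counts at 12 h and 1154 counts at 20 h, which are 0.125 CPM at 12 h and 19 CPM at 20 h, a rise of 152-fold (95% counting interval 73.5 to 379). Its level over the time series was 0.0263 CPM at 0 h and 0.0221, 0.125, 19, 59.5 and 101 CPM at 4, 12, 20, 28 and 42 h, so that it was under 1 CPM up to 12 h and kept rising after 20 h. HAND1 (chr5:154474972-154478227, minus strand), a basic helix-loop-helix factor of extraembryonic tissue and heart, was next in that ranking. It was already well above its 0 h level at 12 h, with 0.0334 CPM at 0 h and 5.98, 22.1, 297, 1036 and 2919 CPM at 4, 12, 20, 28 and 42 h, and rose 13.5-fold (95% counting interval 12.7 to 14.3) in this interval. Counting intervals here and below cover counting error alone, not the difference between cultures.

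The promoters of these genes are shown because the genes lead the rise, each as the 250 bases before the RefSeq start (GRCh38.p14), 5′ to 3′ on the strand of the gene. Capitals mark matches on either strand to short motifs, namely GGAATG of TEAD factors, AGATAA of GATA factors, GCCNNNGGC of TFAP2 factors, GGCGCC of BMP SMADs, TGCACNC and TGCGCNC of the metal response element, the E-box CATCTG and the TATA box TATAAA. ANKRD1 lies at chr10:90921088-90921337, minus strand and HAND1 at chr5:154478228-154478477, minus strand.
ANKRD1: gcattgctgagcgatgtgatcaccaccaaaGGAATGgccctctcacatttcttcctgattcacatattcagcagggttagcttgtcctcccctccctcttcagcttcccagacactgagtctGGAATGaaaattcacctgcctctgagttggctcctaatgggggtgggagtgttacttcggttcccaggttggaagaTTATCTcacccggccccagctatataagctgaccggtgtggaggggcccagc
HAND1: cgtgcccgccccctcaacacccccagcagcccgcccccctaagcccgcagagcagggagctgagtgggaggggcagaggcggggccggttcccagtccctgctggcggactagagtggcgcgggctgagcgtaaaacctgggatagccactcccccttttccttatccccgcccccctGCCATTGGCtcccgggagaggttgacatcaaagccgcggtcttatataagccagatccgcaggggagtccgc

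The ANKRD1 window held GGAATG at 220 and again at 128 bases before the start, and TTATCT, which is AGATAA on the other strand, at 52 bases. GGAATG was present in 11.9% of the 27305 promoters listed and in 7.62% of the 223 rising genes with an entry, and AGATAA in 9.37% and 9.42%. The HAND1 window held 1 match, GCCATTGGC at 72 bases before the start. The TFAP2 letters were found in 19.7% of all promoters, 25.6% of those of rising genes and 26.4% of the 72 falling genes with an entry, so this short sequence did not separate the directions. A match is a description of letters and was not tested as a binding site.

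The other leading rising genes encode membrane, matrix and transcription proteins. PCDH9, a protocadherin, had 4.23 CPM at 12 h and 44.7 CPM at 20 h, a rise of 10.6-fold (95% counting interval 9.25 to 12.1), and it was lower again at 42 h (12.5 CPM). CLDN10, which encodes a tight junction claudin, had 41 CPM at 12 h and 383 CPM at 20 h, 9.33-fold higher, and was highest at 28 h with 773 CPM. PCDH9 and CLDN10 were between 2 and 10 CPM at 0 h and 4 h, whereas ANKRD1 was below the limit of detection there. DIO3, the deiodinase that inactivates thyroid hormone, had 4.14 CPM at 12 h and 39 CPM at 20 h (9.41-fold), and the antisense gene DIO3OS moved with it from 1.59 to 13.4 CPM, so that reads of the pair cannot be told apart without a statement of strand. HAPLN1, the link protein of hyaluronan matrix, had 0.699 CPM at 12 h and 9.49 CPM at 20 h (13.6-fold). WLS, which carries Wnt proteins to the cell surface, had 2.92 CPM at 12 h and 22.3 CPM at 20 h (7.63-fold). Among these, WLS, DIO3 and HAPLN1 were higher still at 42 h, with 398, 613 and 209 CPM.

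**Figure D2:**
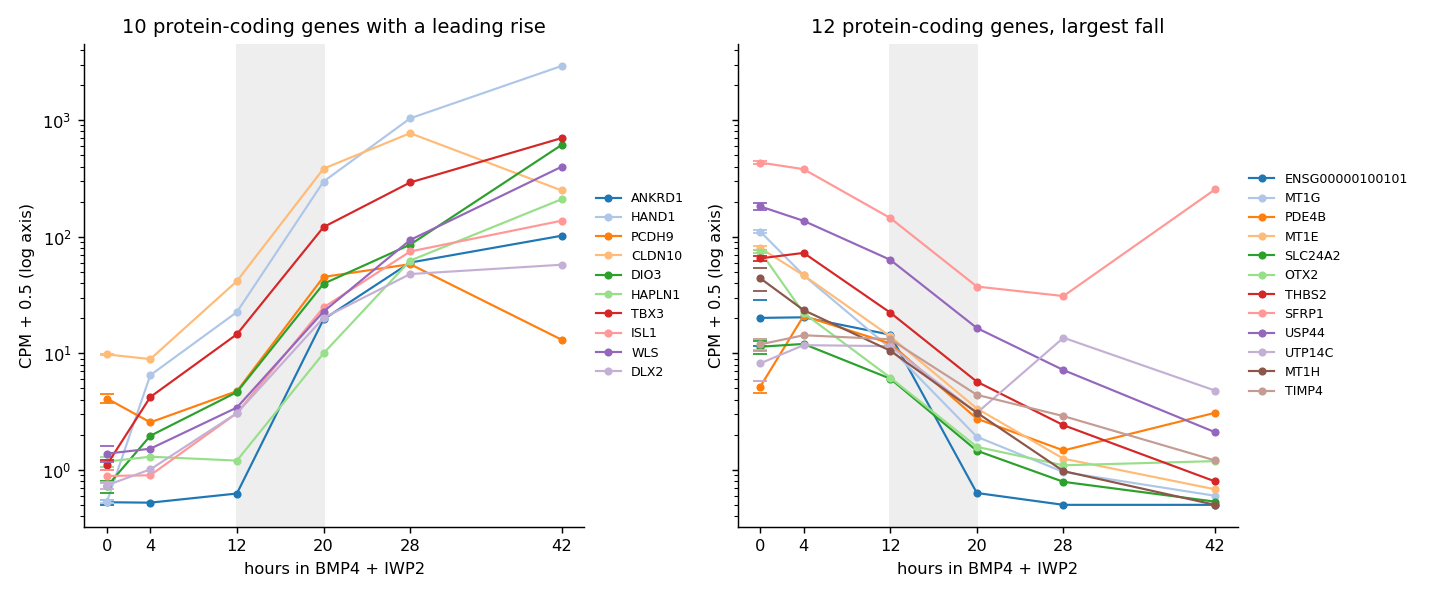
Level (CPM + 0.5, log axis) against hours in BMP4 with IWP2 for 10 of the 12 protein-coding genes with the largest rise (left) and the 12 with the largest fall (right) from 12 h to 20 h, shaded in grey. Points are single libraries, except 0 h, which is the mean of 2 libraries drawn as dashes; the left curves climb through the shaded interval and the right curves drop, with UTP14C back at its earlier level at 28 h.

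Most measured members of the list of later amnion-associated genes rose. The list holds 20 genes and was chosen with earlier results of these data known, so its share is a description. Of 13 measured members 10 rose and none fell, with a median log2 ratio of 1.49. Over all genes tested the median was -0.07 and 2.20% rose. Besides HAND1, the T-box factor TBX3 had 14 CPM at 12 h and 120.5 CPM at 20 h, a rise of 8.58-fold (95% counting interval 7.97 to 9.24). ISL1, a LIM homeodomain factor, had 0.384, 0.397, 2.56 and 24.2 CPM at 0, 4, 12 and 20 h, a rise of 9.45-fold (95% counting interval 7.95 to 11.3) in the interval. WNT6, which encodes a secreted Wnt ligand, had no count at 12 h and 260 counts at 20 h (4.29 CPM). That is at least 79.8-fold higher when 3 counts are taken for the 12 h library. WNT6 thus passed the filter on the mean through its 20 h level alone. BMP4 itself, the ligand added to the medium, had 60.2 CPM at 12 h and 264 CPM at 20 h (4.39-fold), with the opposite-strand gene ENSG00000287156 at 4.48 and 16.3 CPM. POSTN, ANXA3, KRT7, TBX20 and CDX2 rose between 2.59-fold (KRT7) and 4.05-fold (POSTN). IGFBP3 was lower at 20 h (log2 ratio -0.45) and GATA6 and IGFBP5 were higher (0.86 and 0.52), all short of the limit. The listed genes GABRP, VTCN1, HAND2, MEIS1, MEIS2, KRT17 and ITGB6 averaged under 1 CPM and were not among the 13. Their log2 ratios ran from -0.43 (GABRP) to 0.99 (MEIS1). At 20 h GABRP, IGFBP3 and VTCN1 had 0.512, 10.4 and 0.281 CPM, and were at 164, 2085 and 10.1 CPM at 42 h.

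In the list named early BMP-induced ectoderm factors, also chosen with earlier results of these data known, 16 members were measured. Of these 11 rose, none fell and each of the 16 had a log2 ratio above 0, with a median of 1.13. DLX4 and MSX1 were under 1 CPM at 12 h and passed the filter on the mean through their 20 h level alone. TFAP2B and TP63 averaged under 1 CPM and were not among the 16, with log2 ratios of 0.56 and 0.82. The distal-less homeobox genes moved together. DLX5 had 5.39 CPM at 12 h and 29.9 CPM at 20 h, a rise of 5.55-fold (95% counting interval 4.91 to 6.29), and its neighbour DLX6 had 10.3 CPM at 12 h and 41.7 CPM at 20 h (4.06-fold). DLX3 had 2.24 CPM at 12 h and 12 CPM at 20 h (5.36-fold), its neighbour DLX4 had 0.466 CPM at 12 h and 2.05 CPM at 20 h (4.39-fold), and DLX2, outside the list, had 2.56 CPM at 12 h and 19.6 CPM at 20 h (7.65-fold). All 5 were under 2 CPM at 0 h and 4 h, so the word early in the list name does not describe the timing of its DLX members here. MSX1 had 0.645 CPM at 12 h and 3.5 CPM at 20 h (5.42-fold), whereas its relative MSX2 had already 115 CPM at 12 h and 295 CPM at 20 h (2.57-fold). GATA3, TFAP2A and GATA2 changed less than these genes. GATA3 had 45.6, 172 and 270.3 CPM at 4, 12 and 20 h (1.58-fold over 12 h), TFAP2A 171 and 312 CPM (1.82-fold) and GATA2 167 and 321 CPM (1.92-fold), each short of the 2-fold limit with library totals. GATA2 passed it with TMM factors. TFAP2C rose, with 58.6 CPM at 12 h and 129 CPM at 20 h (2.2-fold).

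**Figure D3:**
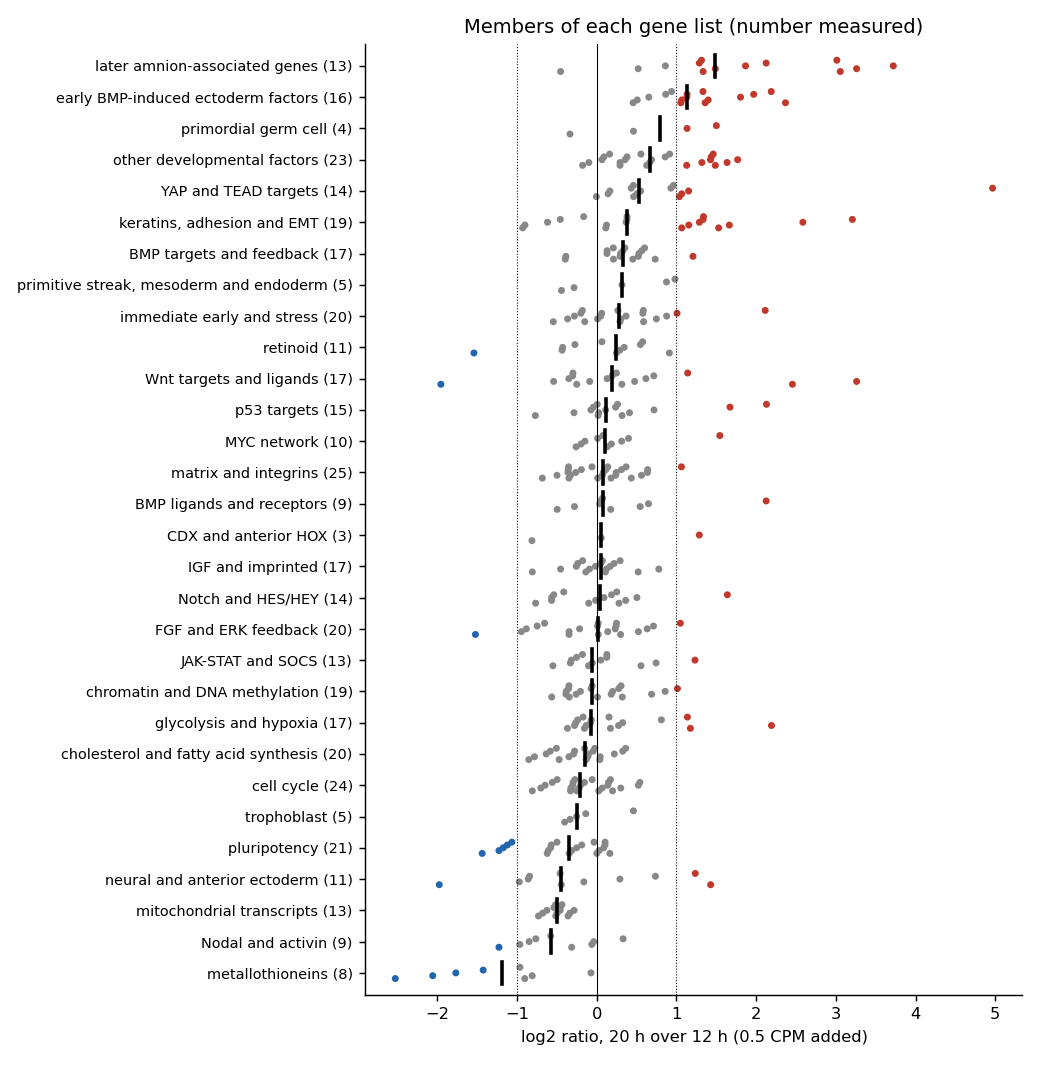
Log2 ratio of 20 h over 12 h (0.5 CPM added, horizontal axis) for the measured members of 30 gene lists, with the number measured in brackets and the median as a black bar. Points at or past the dotted 2-fold lines are red (higher at 20 h) or blue (lower). The later amnion-associated list has the highest median (1.49) and the metallothionein list, which includes SLC30A1, the lowest (-1.19).

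Immediate targets and feedback genes of the BMP pathway were mostly short of the limit. Of 17 measured members 15 had a log2 ratio above 0, but 1 rose, the secreted BMP antagonist NOG, with 110.1 CPM at 12 h and 255 CPM at 20 h, a rise of 2.32-fold (95% counting interval 2.25 to 2.39). The median log2 ratio was 0.33. ID1, which encodes an inhibitor of helix-loop-helix factors, had 60.1, 942, 1276 and 1604 CPM at 0, 4, 12 and 20 h (1.26-fold over 12 h). SMAD6, an inhibitory SMAD, had 619.7 and 941 CPM (1.52-fold) and the pseudoreceptor BAMBI 393 and 582 CPM (1.48-fold). Among 9 ligands and receptors BMP4 alone passed the limit.

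In the Wnt list 3 of 17 members rose and 1 fell. WNT5B rose beside WNT6, with 2.96 CPM at 12 h and 18.5 CPM at 20 h (6.24-fold), where FBXL14 overlaps it on the opposite strand at 10.8 and 27.0 CPM, and the nuclear Wnt effector LEF1 had 2.74 CPM at 12 h and 6.65 CPM at 20 h (2.43-fold). SFRP1, a secreted antagonist of Wnt, had 432 CPM at 0 h and 379, 144, 36.8, 30.4 and 254 CPM at 4, 12, 20, 28 and 42 h, a fall of 3.91-fold (95% counting interval 3.73 to 4.1) from 12 h to 20 h. Of 9 Nodal and activin genes 1 fell, the Nodal co-receptor TDGF1 (376 and 160.3 CPM), and 8 of the 9 had a log2 ratio under 0, with a median of -0.58. The growth factor gene FGF4 had 9.17 CPM at 12 h and 2.87 CPM at 20 h, 3.19-fold lower, while DUSP4, a phosphatase that dampens ERK, had 15.5 CPM at 12 h and 32.6 CPM at 20 h (2.1-fold higher). Among 14 Notch genes the ligand DLL1 rose, with 2.72 CPM at 12 h and 9.54 CPM at 20 h (3.5-fold). FGF4, DUSP4, LEF1 and DLL1 did not reach 2-fold in the length-scaled FPKM values.

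Pluripotency genes moved unevenly. Of 21 measured members 5 fell and none rose, against 0.885% of all genes falling, with a median log2 ratio of -0.34 and 6 of the 21 above 0. NANOG had 131 CPM at 0 h and 148, 97.5, 43, 12.3 and 1.08 CPM at 4, 12, 20, 28 and 42 h, a fall of 2.27-fold (95% counting interval 2.17 to 2.38) from 12 h to 20 h. UTF1 was 2.83-fold lower (18.9 and 6.68 CPM), TDGF1 2.34-fold, the noncoding ESRG 2.18-fold and PRDM14 2.31-fold, although PRDM14 missed the limit with TMM factors. SOX2 had 222 CPM at 12 h and 149 CPM at 20 h, 1.49-fold lower and short of the limit, after 382 CPM at 0 h. POU5F1 had 1527 and 1642 CPM, a log2 ratio of 0.10, smaller than the 0.78 between its 0 h libraries.

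OTX2, a homeobox factor of anterior ectoderm and primed pluripotency, had 74.1 CPM at 0 h and 21.6, 5.68, 1.07, 0.592 and 0.686 CPM at 4, 12, 20, 28 and 42 h, a fall of 5.29-fold (95% counting interval 4.04 to 7.03) in the interval. Neural and anterior ectoderm genes went both ways, since SOX3 rose (5.8 and 16.5 CPM, 2.84-fold) and SIX3 rose (1.63 and 4.52 CPM, 2.77-fold) while 8 of the 11 members did not pass the limit. LRAT, which esterifies retinol, had 4.26 CPM at 12 h and 1.14 CPM at 20 h (3.74-fold lower), and 10 other retinoid genes did not pass. In the length-scaled FPKM values LRAT did not reach 2-fold either (log2 ratio -0.90).

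The list of metallothioneins, small proteins that bind zinc and copper, also holds the zinc exporter SLC30A1. The list had the lowest median of the 30 lists, -1.19, with 4 of 8 measured members falling and 8 of 8 below 0. SLC30A1 changed least of the 8, with a log2 ratio of -0.07. MT1G had 110.1 CPM at 0 h and 46.2, 10.6, 1.42, 0.457 and 0.098 CPM at 4, 12, 20, 28 and 42 h, a fall of 7.44-fold (95% counting interval 5.92 to 9.44). MT1E was 4.71-fold lower (13.5 and 2.86 CPM), MT1H 3.87-fold (10 and 2.59 CPM) and MT1F 3.19-fold (5.27 and 1.65 CPM). MT1X and MT2A, at 13.9 and 6.88 CPM and at 54.8 and 29.1 CPM, did not quite reach the 2-fold limit. The metallothionein genes lie side by side on chromosome 16 and are near copies. Reads could be shared between them, so their single values are uncertain.

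Among the other leading falling genes, PDE4B, a phosphodiesterase that degrades cAMP, had 4.67, 20.4, 11.6 and 2.24 CPM at 0, 4, 12 and 20 h, a fall of 5.18-fold (95% counting interval 4.3 to 6.28) after an early rise. THBS2, a matricellular thrombospondin, was 4.19-fold lower (21.8 and 5.2 CPM), USP44, a deubiquitinase, 3.94-fold (62.9 and 16 CPM), TIMP4, an inhibitor of metalloproteinases, 3.25-fold (12.7 and 3.89 CPM) and SLC24A2, a sodium, potassium and calcium exchanger, 5.8-fold (5.55 and 0.957 CPM). SLC24A2 did not reach 2-fold in the FPKM values, where its log2 ratio was -0.79 against -2.05 in CPM. USP44 went from 181 CPM at 0 h and reached 1.6 CPM at 42 h. The promoters of PDE4B (chr1:65792260-65792509, plus strand, the first of 6 listed starts) and SLC24A2 (chr9:19789038-19789287, minus strand) are shown as the falling counterparts, with the same motifs in capitals.
PDE4B: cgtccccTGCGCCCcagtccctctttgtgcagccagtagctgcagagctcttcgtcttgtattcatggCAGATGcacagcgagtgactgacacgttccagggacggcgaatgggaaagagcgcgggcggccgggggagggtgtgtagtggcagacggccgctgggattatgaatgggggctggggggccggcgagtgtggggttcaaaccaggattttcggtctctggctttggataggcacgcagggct
SLC24A2: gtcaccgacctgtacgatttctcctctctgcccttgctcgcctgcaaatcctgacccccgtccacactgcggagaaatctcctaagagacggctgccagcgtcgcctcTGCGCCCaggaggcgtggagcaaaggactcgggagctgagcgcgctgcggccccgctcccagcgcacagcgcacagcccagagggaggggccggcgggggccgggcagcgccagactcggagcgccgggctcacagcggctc

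Both windows held TGCGCCC, a form of TGCGCNC, which was present in 16.9% of all promoters, 21.1% of rising and 30.6% of falling genes with an entry, while the form TGCACNC was present in 9.73%, 8.97% and 12.5%. The PDE4B window also held CAGATG, the E-box on the other strand, found in 12.2% of all promoters. GGCGCC was in 16.1% of all promoters, 26% of rising and 23.6% of falling genes, and TATAAA in 11.1%, 10.3% and 5.56%.

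Keratins, adhesion genes and genes of the epithelial to mesenchymal transition formed the next group, with 9 of 19 rising and none falling (median 0.38). The simple epithelial keratins rose together, KRT8 from 804 to 1964 CPM (2.44-fold), KRT18 from 356 to 747 CPM (2.1-fold) and KRT19 from 169 to 378 CPM (2.23-fold). FN1, the matrix glycoprotein fibronectin, had 160.1 CPM at 12 h and 964 CPM at 20 h, a rise of 6.02-fold (95% counting interval 5.89 to 6.16). CLDN4, a claudin, rose from 51.5 to 149.6 CPM (2.91-fold). TWIST1 (0.376 and 2.28 CPM) and ZEB2 (1.09 and 3.53 CPM), repressors of the epithelial program, rose too but at low levels. Other genes of this kind did not, since SNAI1 had a log2 ratio of 0.12 and VIM -0.46. SNAI2 (-0.32) and ZEB1 (-0.03) averaged under 1 CPM. TWIST1 passed the filter on the mean through its 20 h level alone. E-cadherin, CDH1, had 346 and 451 CPM, and N-cadherin, CDH2, had 15.7 and 8 CPM, and neither passed the limit.

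The list of YAP and TEAD targets also holds factors of the pathway itself, namely YAP1, WWTR1, TEAD1, TEAD3 and TEAD4. Of its 14 measured members 4 rose and none fell (median 0.53), where 2.20% of all genes rose. With TMM factors 6 rose. Besides ANKRD1 they were the matricellular CCN1 (103 and 215 CPM), the scaffold AMOTL2 (237 and 487 CPM) and the factor TEAD3 (73.4 and 164 CPM), between 2.06- and 2.23-fold. CCN2, a relative of CCN1, had 64.7 and 87.5 CPM and did not pass. ANKRD1 met the filter on the mean through its 20 h level alone. In the glycolysis and hypoxia list the members that passed were carriers. SLC2A1 rose 2.21-fold (117 and 258 CPM), SLC2A3 2.26-fold (602 and 1362 CPM), both glucose carriers, and the lactate carrier SLC16A3 4.83-fold (6.83 and 33 CPM), 3 of 17 members with a list median of -0.07. In the immediate early and stress list 2 of 20 rose (median 0.28). JUN rose from 20.9 to 92.2 CPM (4.41-fold), whereas its partner FOS had 17.8 and 17.9 CPM, and the other was EGR1, which did not reach 2-fold in the FPKM values. Of 15 p53 targets 2 rose (median 0.11). BTG2, an antiproliferative p53 target, rose 4.5-fold (13.8 and 61.9 CPM) and GDF15 3.95-fold (1.43 and 5.66 CPM), while CDKN1A had 7.29 and 9.87 CPM.

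Of 23 further developmental factors 8 rose and none fell (median 0.67). The T-box repressor TBX2 had 0.412 CPM at 12 h and 2.61 CPM at 20 h (6.33-fold), IRX2 32.8 CPM at 12 h and 103 CPM at 20 h (3.14-fold), the nuclear receptor NR2F2 4.03 CPM at 12 h and 12 CPM at 20 h (2.97-fold) and the coactivator CITED2 68.4 CPM at 12 h and 185 CPM at 20 h (2.7-fold). IRX2 had been at 94.6 CPM at 0 h and 14 CPM at 4 h, so its rise was a return. TBX2 passed the filter on the mean through its 20 h level alone. NANOS3, an RNA-binding protein of germ cells, rose 3.64-fold to 4.11 CPM, 1 of 2 rising members among 4 measured germ cell genes. Besides the mitochondrial transcripts, 5 lists had no measured member past the limit. They included cell cycle (24 members measured, median -0.21), cholesterol and fatty acid synthesis (20, -0.14) and IGF and imprinted genes (17, 0.05). The others were trophoblast (5 of 20 listed genes measured, -0.25) and primitive streak, mesoderm and endoderm (5 of 16, 0.32). The 13 mitochondrial transcripts were all lower at 20 h, with a median log2 ratio of -0.50, and none passed. In the streak list TBX6 lay at 0.98 and passed with TMM factors (1.07).

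Genes that switched on were under 1 CPM at 12 h, at least 1 CPM at 20 h and at least 4-fold higher with 0.5 CPM added to both levels, and 20 of the 61541 human genes (0.0325%) met this. Of these 11 were protein-coding. ANKRD1, HAPLN1 and WNT6 were described above. NKX2-5, a homeobox factor of heart progenitors, had 26 counts at 12 h and 267 at 20 h (0.466 CPM at 12 h and 4.41 CPM at 20 h), a rise of 9.46-fold (95% counting interval 6.31 to 14.7). NPPB, the natriuretic peptide B gene, had 2 counts at 12 h and 123 at 20 h (2.03 CPM), a ratio of 56.7 with a counting interval of 15.4 to 473. TLR7, a receptor for single-stranded RNA, had 0.358 and 4.14 CPM (11.6-fold), GMPR, a GMP reductase, 0.735 and 4.98 CPM (6.78-fold), and UNC13C, a protein of synaptic vesicle priming, 0.466 and 3.75 CPM (8.04-fold). NKX2-5, NPPB, GMPR and UNC13C were each higher again at 28 h, with 13, 9.95, 10.6 and 10.1 CPM. By contrast CENPVL1 had no count at 12 h or 28 h and 3.8 CPM at 20 h, and it has near copies. ENSG00000256861 and ENSG00000267228 overlap other genes on the same strand.

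Genes that switched off by the mirrored rule numbered 7 (0.0114%), all protein-coding. HHEX, a homeobox factor, had 0.347, 7.44, 3.8 and 0.561 CPM at 0, 4, 12 and 20 h, a fall of 6.77-fold (95% counting interval 4.7 to 10) that closed an early pulse. DDX58, which encodes the RNA sensor RIG-I, had 4.28 CPM at 12 h and 0.677 CPM at 20 h (6.33-fold lower), but ENSG00000288684, on the same strand over it, had 3.12 and 3.75 CPM, so the assignment of reads between them is uncertain. SLC24A2, whose fall was under 2-fold in the FPKM values, was among the 7. ENSG00000100101 had the largest ratio (777 counts at 12 h and 8 at 20 h), but it shares its strand and place with NOL12 and TRIOBP, at 24.2 and 29.2 CPM and at 135 and 149 CPM, and its 0 h libraries differed by -1.33 on the log2 scale. SERF1A (3.94 and 0.264 CPM) has a near-identical copy. The other 2 were ENSG00000285000 and ENSG00000285920.

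Ribosomal RNA also stood out among the genes that switched on. The 3 features on chromosome 21 with the same counts in every library (ENSG00000280614, ENSG00000280800 and ENSG00000281181) had 9 counts at 12 h and 1266 at 20 h (20.9 CPM). The mitochondrial ribosomal RNAs MT-RNR1 and MT-RNR2 had 0.125 and 3.09 CPM and 0.197 and 3.78 CPM. The libraries were depleted of ribosomal RNA, and these genes differed between the 0 h libraries by -2.95 (MT-RNR1), -3.86 (MT-RNR2) and -2.06 (the features on chromosome 21) on the log2 scale. ENSG00000278996, which overlaps ENSG00000280800 on the other strand, fell from 28.3 to 4.64 CPM, and it and SCARNA10, a guide RNA of Cajal bodies (24.2 and 4.39 CPM), led the noncoding falls with ENSG00000289399 (7.72 and 1.3 CPM). The SCARNA10 libraries at 0 h differed by 2.24.

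A transient peak at 20 h was called where 20 h was the highest of the 6 times and at least 2-fold above both the 0 h mean and 42 h, which 268 of the genes tested met (1.68%). A trough by the mirrored rule was met by 29 (0.182%). Most of these peaks did not depend on a large step from 12 h. Of the 268 genes 28 also rose at least 2-fold from 12 h and 240 did not, and their median log2 ratio was 0.43 for 20 h over 12 h and -0.50 for 28 h over 20 h. The factor NKX3-2 had 0.0552 CPM at 0 h and 1.72, 8.42, 15.8, 4.87 and 1.11 CPM at 4, 12, 20, 28 and 42 h. RUNX3 had 4.85, 8.13, 13.1, 5.91 and 0.964 CPM at 4, 12, 20, 28 and 42 h. FOXD1 had 1.24, 19.5 and 2.01 CPM at 0, 20 and 42 h. These factors were above 0 h by 4 h and had lost most of their level by 42 h.

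The noncoding PCAT14 had 0.848 CPM at 0 h and 162, 841, 1131, 754 and 134 CPM at 4, 12, 20, 28 and 42 h, and NKX1-2 had 43.2, 483 and 63.2 CPM at 0, 20 and 42 h, with its antisense gene ENSG00000271434 at 0.29, 10.2 and 0.572 CPM. Among the 539 listed genes 15 peaked at 20 h and 3 of these had also risen from 12 h, namely DUSP4, NANOS3 and ZEB2. The others included the BMP target ID3 (31.3, 491 and 191 CPM at 0, 20 and 42 h), BMP7, the Wnt deacylase NOTUM, the ERK antagonist SPRY2 and EOMES. Of the named troughs PRUNE2 had 77.7, 28 and 70.2 CPM at 12, 20 and 42 h, beside FEZ1 (21.3, 10.6 and 73.7 CPM) and S100A10 (21.4, 13.4 and 88 CPM). Among 15982 genes averaging 1 CPM or more over the 6 times, the same rule found 197, 112, 248 and 76 peaks at 4, 12, 20 and 28 h, and with TMM factors 124, 78, 223 and 71. These counts share libraries and were not tested against each other.

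**Figure D4:**
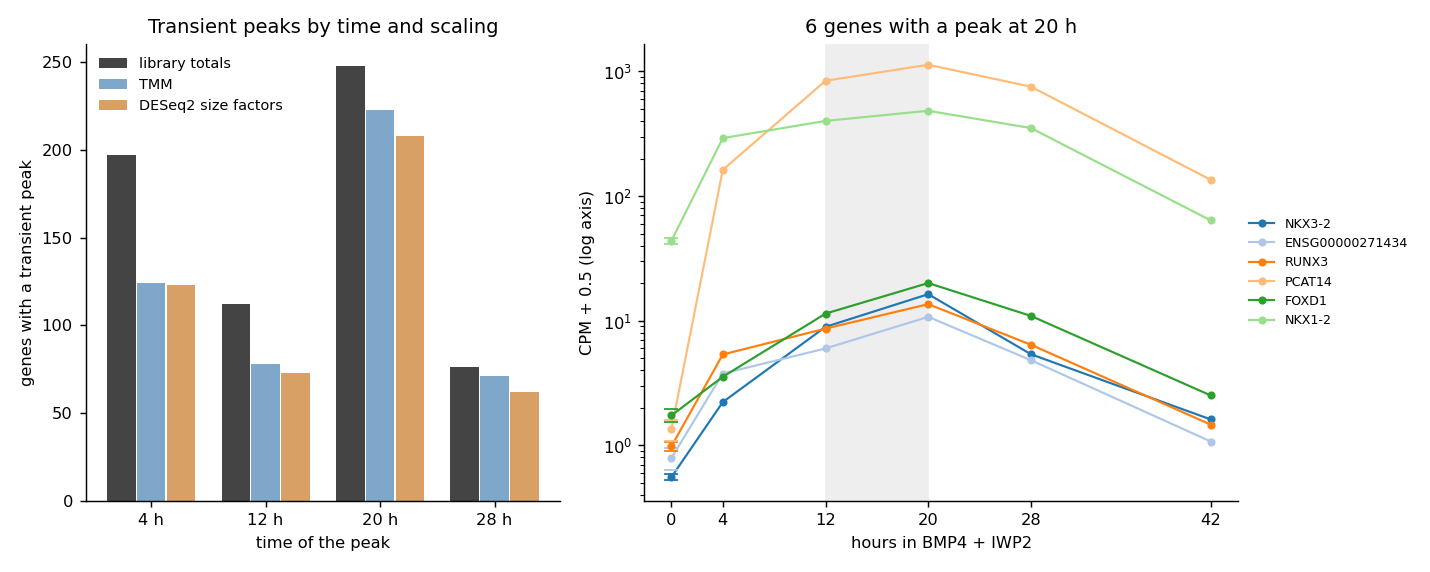
Left, number of genes whose transient peak fell at 4, 12, 20 or 28 h among 15982 genes, with 3 ways of scaling the libraries; 20 h has the tallest bar with each (248, 223 and 208 genes). Right, level (CPM + 0.5, log axis) of 6 genes with a peak at 20 h against hours in BMP4 with IWP2, with the interval from 12 h to 20 h in grey and the 0 h libraries as dashes.

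The direction of the change was then looked up in the 4 h and 28 h libraries, which the calls did not use. Of the 350 rising genes 324 were at least 2-fold higher at 28 h than at 4 h (92.6%, against 6.20% of all genes tested), with a median log2 ratio of 2.52 against -0.15. Of the 141 falling genes 121 were at least 2-fold lower (85.8%, against 7.55%), with a median of -2.35, and with TMM factors, where 100 genes fell, 80 were. Of 9 rising genes that were lower at 28 h than at 4 h, 5 were the ribosomal RNA features above and 1 was CENPVL1. None of the falling genes was at least 2-fold higher. In the 350 rising genes the maximum of the time series fell on 42 h (170 genes), 28 h (123), 20 h (52) or 0 h (5). In the 141 falling genes it fell mostly on 0 h (67), 4 h (47) or 12 h (23). The median rising gene stood at 18% of its maximum at 12 h and 56.4% at 20 h.

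**Figure D5:**
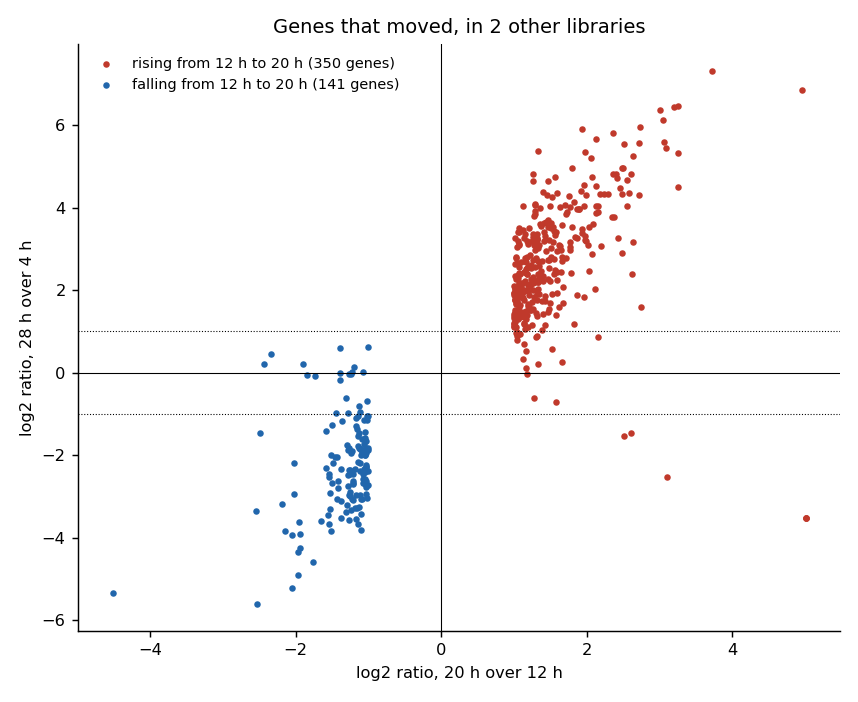
Log2 ratio of 20 h over 12 h (horizontal axis) and of 28 h over 4 h (vertical axis, libraries not used for the calls) for the 350 rising (red) and 141 falling (blue) genes, with dotted lines at 2-fold. Of the rising genes 324 lie above the upper line, and the red points at the lower right are ribosomal RNA features and CENPVL1.

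Most rising genes measured at 5 h did not pass 2-fold under BMP receptor inhibition. Of 241 rising genes measured in the dose response, 46 were at least 2-fold higher at 0 than at 300 nM LDN (19.1%, against 2.34% of all genes measured there) and 8 were lower (3.32%, against 0.372%). A gene counted as measured there when it also averaged 1 CPM or more over the 0 and 300 nM libraries themselves. HAND1 had 3.76 CPM at 0 nM and 0.0603 CPM at 300 nM, TBX3 2.99 and 0.181 CPM, NOG 30.1 and 0.241 CPM, MSX2 40 and 1.39 CPM and TFAP2C 42 and 7.81 CPM. HAND1, TBX3 and NOG passed that filter through the 0 nM library alone. ISL1 had 0.974 and 0.241 CPM, and ANKRD1 0.139 and 0 CPM, both at low counts. KRT8, FN1, SLC2A3 and JUN, which rose from 12 h to 20 h, differed less than 2-fold at 5 h, with 583 and 434 CPM, 84.8 and 75.6 CPM, 425 and 439 CPM and 20.1 and 18.6 CPM. Of 128 falling genes measured 8 were at least 2-fold lower at 0 than at 300 nM (6.25%, against 0.372%) and 11 were higher (8.59%, against 2.34%). OTX2 (12 and 49.7 CPM), LRAT (8.14 and 46.3 CPM) and PRDM14 (14.6 and 76.3 CPM) were among the 8, and FGF4 (15 and 4.1 CPM) was among the 11. Each dose is 1 library, so these differences have no replicate check.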

How the data were processed

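RNA of RUES2 GFP::SMAD4 cells was sequenced in 13 libraries, of which the 12 h and 20 h libraries were compared. After trimming (Cutadapt), the authors aligned the reads to GRCh38 (STAR 2.7.8a) and quantified genes with RSEM 1.3.3. The ENSEMBL release and the use of strand are not given in the sources used here. The deposited count tables hold RSEM expected counts as whole numbers, without scaling. The FPKM tables, scaled by the authors for depth and length, served as an alternative only. Totals were 55815183 counts at 12 h and 60593493 at 20 h.

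CPM on each library total was computed, and 0.5 CPM was added before log2 ratios of genes averaging 1 CPM or more. With 1 library at each time there is no test in the main results. Intervals are exact 95% intervals of counting error (Clopper-Pearson), and 3 counts are the limit of detection. Named genes are the 12 protein-coding genes with the largest rise and fall (at least 5 CPM in either library), the 3 noncoding genes each way, 6 peaks (at least 10 CPM at 20 h) and 3 troughs, up to 4 members of each list with the largest change, and the genes the study stained; others were named after their values were seen. The members and lists were chosen with earlier results of these data known. Gene positions are from GENCODE 44, promoters from RefSeq (223 of 350 rising and 72 of 141 falling genes matched by symbol). Alternatives were edgeR 4.0.16 TMM factors, DESeq2 1.42.0 size factors, the FPKM values, other pseudocounts, filters and folds, and tests with both tools over the 7 libraries of the time series, in which lone libraries are assumed to vary like the 0 h pair. These fits were also run on simulated data in which every gene and library had the same spread. That run cannot check the assumption about lone libraries. Y-linked genes, 1 X-linked gene and a few genes that the naming rule picked are not reported here.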

Additional observations from a re-analysis of the deposited data

Results flagged for a closer look

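Reads of the green fluorescent protein were counted in a feature that is not a human gene and enters no comparison above. It had 1495 counts at 12 h and 1647 counts at 20 h, which are 26.8 and 27.2 CPM, and it was noted because a signal above 3 counts appeared outside the genes compared. The 4 other features that are not human (cre, eyfp, mcherry and tdtomato) had 0 counts in both libraries.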

How the results depend on the processing

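No paired analysis was possible because 12 h and 20 h have 1 library each and share only the number 1. With TMM factors 427 genes rose and 100 fell, including all 350 rising genes, and with DESeq2 size factors 426 and 100, so rising genes made up 81.0% of calls in both in place of 71.3%. The number of falling genes was 224 with a pseudocount of 0.1 CPM and 93 with 1 CPM. A limit of 1.5-fold gave 944 rising and 922 falling genes, and 4-fold gave 59 and 12. Taking the spread of the 0 h pair for every time, edgeR called 238 of the rising and 56 of the falling genes at an adjusted p under 0.05, and DESeq2 130 and 23. In the lists of YAP and TEAD targets, keratins with adhesion and EMT genes, and pluripotency genes, edgeR called 1, 5 and 1 members. Genes switched off numbered 4 with TMM factors, DESeq2 size factors or a limit of 0.5 CPM, and 11 with a pseudocount of 0.1 CPM, where 48 switched on; the FPKM values gave 55 switched on and 67 off. A 1.5-fold rule gave 644 peaks and 119 troughs at 20 h, and leaving out either 0 h library gave 265 to 276 peaks and 30 to 32 troughs. Of the falling genes 80 were at least 2-fold lower at 28 h than at 4 h under either of these scalings (TMM or DESeq2). Of the 154 named genes 76 were called, none changed sign in these alternatives, and 9 calls were lost with FPKM values (SLC24A2, LEF1, FGF4, DUSP4, DLL1, LRAT, EGR1, ITGA5 and SETD7). The cause of these shifts was not tested. Without replicates at 12 h and 20 h, the difference between cultures cannot be told apart from the difference between times.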
